A study of Mus musculus with 36 samples.

Results

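Liver transcripts of nicotinamide adenine dinucleotide (NAD) metabolism and of the sirtuins were followed over the day under intermittent hypoxia (IH) and in control air: Nampt, Nadsyn1, Qprt, Nnmt, Sirt1, Sirt3, Sirt5 and Sirt6. They were chosen by symbol, as 8 of the 24346 symbols in the tables, and all 8 were above 0 in each of the 36 libraries and passed the filter of a mean of at least 0.1 FPKM. FPKM are fragments scaled to transcript length and to the mapped fragments of a library, so levels can be set side by side between genes. The animals were male wild-type C57BL/6JRj mice, 16 weeks old, housed 5 per cage with chow at all times and a 12 h light and 12 h dark cycle in which zeitgeber time (ZT) 0 is lights on. IH mice received 60 cycles per hour between 5% and 21% inspired oxygen from ZT0 to ZT8, every day for 4 weeks, and control mice received air cycled in the same way. Liver polyadenylated RNA was taken from 3 mice per condition at each of 6 time points 4 h apart, so mice sampled at ZT4 were within the hypoxic hours and those at ZT8 at their end. Each library came from whole liver of 1 mouse, in which fewer cells of a type and less RNA per cell cannot be told apart.

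NAD carries electrons in fuel oxidation and is also consumed as a substrate, so cells must keep remaking it. The liver makes it from tryptophan through quinolinate, from nicotinic acid, and from nicotinamide by salvage. Nampt encodes the rate-limiting enzyme of salvage, Qprt the enzyme that turns quinolinate into nicotinic acid mononucleotide, and Nadsyn1 the synthetase of the last step of the quinolinate and nicotinic acid routes. Nnmt encodes the methyltransferase that clears nicotinamide. The sirtuins are NAD-dependent deacylases. Sirt1 and Sirt6 act in the nucleus, and Sirt3 and Sirt5 act in mitochondria, as the main deacetylase and as a desuccinylase. Nampt is known as a clock-controlled gene, driven through E-boxes (CACGTG) by CLOCK and BMAL1, and SIRT1 binds that complex, which links NAD to the clock in a loop.

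The start regions of a few members are shown because the members differ in rhythm, with Nampt the most rhythmic and Sirt1 the one with the largest rhythm P in either condition. The sequences are RefSeq windows on GRCm38.p6 (mm10), from 250 bases before to 50 bases after the start, and RefSeq windows were matched for 7 of the 8 members. Capitals mark every match, on either strand, to the E-box CACGTG, the hypoxia response cores ACGTG and GCGTG, and the cyclic AMP response half-site TGACG. The E-box contains ACGTG on both strands, so each E-box also counts as a core. Nampt is read from chr12:32820085-32820384 on the plus strand, Sirt1 from chr10:63338986-63339285 on the minus strand, Nadsyn1 from chr7:143822803-143823102 on the minus strand and Sirt3, the first of 2 windows, from chr7:140882260-140882559 on the minus strand.
Nampt: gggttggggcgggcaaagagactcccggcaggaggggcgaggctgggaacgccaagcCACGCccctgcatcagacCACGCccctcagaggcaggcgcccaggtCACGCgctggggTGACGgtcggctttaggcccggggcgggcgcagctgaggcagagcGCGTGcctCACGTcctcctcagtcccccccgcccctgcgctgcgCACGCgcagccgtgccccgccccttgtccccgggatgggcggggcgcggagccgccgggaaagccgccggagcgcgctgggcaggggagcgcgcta
Sirt1: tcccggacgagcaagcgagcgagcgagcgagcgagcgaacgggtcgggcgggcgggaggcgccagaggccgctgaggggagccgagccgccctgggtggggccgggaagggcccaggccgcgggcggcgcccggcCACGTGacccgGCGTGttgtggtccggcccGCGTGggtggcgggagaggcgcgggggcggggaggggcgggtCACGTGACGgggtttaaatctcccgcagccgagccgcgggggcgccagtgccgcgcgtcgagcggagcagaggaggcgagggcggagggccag
Nadsyn1: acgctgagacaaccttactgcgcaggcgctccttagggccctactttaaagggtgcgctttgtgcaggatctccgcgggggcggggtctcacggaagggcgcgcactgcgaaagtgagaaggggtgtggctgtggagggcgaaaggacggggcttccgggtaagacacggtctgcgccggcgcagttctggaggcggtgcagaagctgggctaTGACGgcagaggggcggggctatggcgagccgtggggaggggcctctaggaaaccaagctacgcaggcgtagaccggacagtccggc
Sirt3: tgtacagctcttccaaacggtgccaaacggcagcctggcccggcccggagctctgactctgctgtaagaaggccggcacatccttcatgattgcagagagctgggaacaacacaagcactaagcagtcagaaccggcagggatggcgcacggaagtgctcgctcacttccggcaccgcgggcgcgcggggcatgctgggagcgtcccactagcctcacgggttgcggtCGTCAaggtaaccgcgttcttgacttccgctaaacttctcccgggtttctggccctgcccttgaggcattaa

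The Sirt1 window held 2 E-boxes, at positions -115 and -43 from the start, the second running into a TGACG. No E-box letters were found in the window of Nampt, which held 1 CACGT, the reverse of ACGTG, and 5 matches to GCGTG or its reverse CACGC. Over all 32851 mouse promoter windows of this length, 7.15% held CACGTG, 19.62% ACGTG, 32.39% GCGTG and 20.81% TGACG on either strand. Those shares were not matched for base content. The letters G and C made up 76.33% of the Nampt window, 79% of Sirt1, 65.67% of Nadsyn1, 61% of Sirt3 and 60.33% of Qprt. The full cyclic AMP response element TGACGTCA (1.79% of windows) and the D-box TTATGTAA (0.938%) were found in no member window. Nadsyn1 and Sirt3 each held 1 half-site and none of the other letters searched. The Sirt5 window held 1 ACGTG and 1 GCGTG, the first Sirt6 window held 2 matches to CACGT, and the Qprt window held none of the motifs. These are matches of letters, and factor binding was not measured in these data.

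The members spanned a wide range of levels. Qprt was the most abundant, at 101 ± 15.8 FPKM (SD over 36 libraries), ahead of Nnmt at 81.0 ± 68.3, Sirt3 at 44.8 ± 9.58, Nampt at 14.4 ± 6.97, Nadsyn1 at 8.09 ± 1.66, Sirt5 at 7.14 ± 1.43, Sirt1 at 2.54 ± 0.397 and Sirt6 at 2.21 ± 0.297. Of the neighbours in this order, Sirt3 lay above Nampt and Sirt5 above Sirt1 in all 36 libraries. The other neighbours crossed: Qprt lay above Nnmt in 27 of 36 libraries, Nnmt above Sirt3 in 27, Nampt above Nadsyn1 in 27, Nadsyn1 above Sirt5 in 28 and Sirt1 above Sirt6 in 29. Sirt3 was measured at a higher FPKM than Sirt1 or Sirt6 in every library. Of the sirtuins outside the members, Sirt2 averaged 27.1 FPKM, Sirt7 23.1 and Sirt4 4.995. On mm10 the members lie at chr12:32819545-32853349 (Nampt, plus strand), chr7:143795584-143822849 (Nadsyn1, minus), chr7:127107114-127122226 (Qprt, minus), chr9:48591877-48605153 (Nnmt, minus), chr10:63319005-63381704 (Sirt1, minus), chr10:81621785-81627797 (Sirt6, minus), chr7:140863666-140882309 (Sirt3, minus) and chr13:43365496-43395203 (Sirt5, plus). The 5′ end of Sirt3 overlaps 342 bp of Psmd13, a proteasome subunit gene on the opposite strand that was itself at 31.0 FPKM, and its 3′ end overlaps 707 bp of Ric8a. The libraries were made with a stranded kit, but whether strand was used to make the FPKM is not given in the sources used here.

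Some features of the libraries bear on these genes. Control ZT12 replicate 2 had a total of 808274 FPKM, against 561964 to 626371 in the other 35. Its median gene nevertheless read low. Relative to the geometric mean of all 36 libraries it stood at 0.760 (the median-ratio factor), against 0.912 to 1.068 in the other 35. That library also had the highest summed Kupffer cell markers (124.8 FPKM, 5 of 5 genes found, against a control median of 34.0) and leukocyte markers (205 FPKM, mostly S100a8 and S100a9, against a median of 2.35). Of the 5 hepatocyte markers, Alb was between 23400 and 37560 FPKM throughout, but others stood out in control ZT12 replicate 2. That library had the lowest Hnf4a of all (61.1 FPKM, mean 117) and the highest Apoa1 (24260, mean 9391) and Ttr (5246, mean 4004). The adipocyte markers Adipoq and Plin1 and the pancreatic markers were at or near 0. Acute phase transcripts, which the liver makes during inflammation, differed between mice by orders of magnitude: Saa1 exceeded 10000 FPKM in IH ZT0 replicate 2 (22870), control ZT12 replicate 2 (20550) and control ZT16 replicate 3 (12910), with a minimum of 19.1 over all libraries. Nnmt, Sirt3 and Nadsyn1 moved with this measure, as described below. Nampt did so by rank within control, and in both conditions once time of day was removed. Sirt1 did so only by rank within IH with time of day left in.

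Nampt had the strongest daily rhythm of the 8 in both conditions. In control mice it measured 9.95, 7.45 and 6.82 FPKM at ZT0, 6.77, 6.45 and 6.51 at ZT4, 9.92, 16.8 and 14.7 at ZT8, 29.2, 13.8 and 28.8 at ZT12, 18.5, 17.8 and 16.9 at ZT16, and 11.4, 13.9 and 10.8 at ZT20. In IH mice it measured 7.61, 6.68 and 9.73 at ZT0, 6.90, 7.69 and 8.85 at ZT4, 14.7, 16.2 and 16.8 at ZT8, 30.0, 20.9 and 29.2 at ZT12, 19.6, 20.1 and 19.8 at ZT16, and 12.7, 12.1 and 11.1 at ZT20. The mean at ZT12, the start of darkness, was 3.64-fold the mean at ZT4 in control (24.0 ± 8.76 against 6.58 ± 0.171 FPKM, n = 3) and 3.42-fold in IH (26.7 ± 5.03 against 7.81 ± 0.976), with no overlap between the mice of those time points in either condition. Here and for the other members the peak and trough were picked from these means, so their overlap is a description. The peak of the fitted cosine lay at 13.66 ± 0.47 h (SE) for control and 13.15 ± 0.26 h for IH, with amplitudes of 0.78 ± 0.10 and 0.85 ± 0.06 on the log2(FPKM + 1) scale. The rhythm passed the test, limma's F test of a 24-h cosine at a nominal P of 0.01, for control mice (P = 9.17e-07, n = 18) and for IH mice (P = 1.23e-10, n = 18). The low control value at ZT12 (13.8) came from the library with the large FPKM sum, the lowest median-ratio factor and high Saa1. The lowest IH value at ZT12 (20.9) came from a mouse whose Saa1, Saa2, Saa3, Lcn2 and Orm2 summed to 4155 FPKM against 175 and 115 in the other two.

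**Figure D1:**
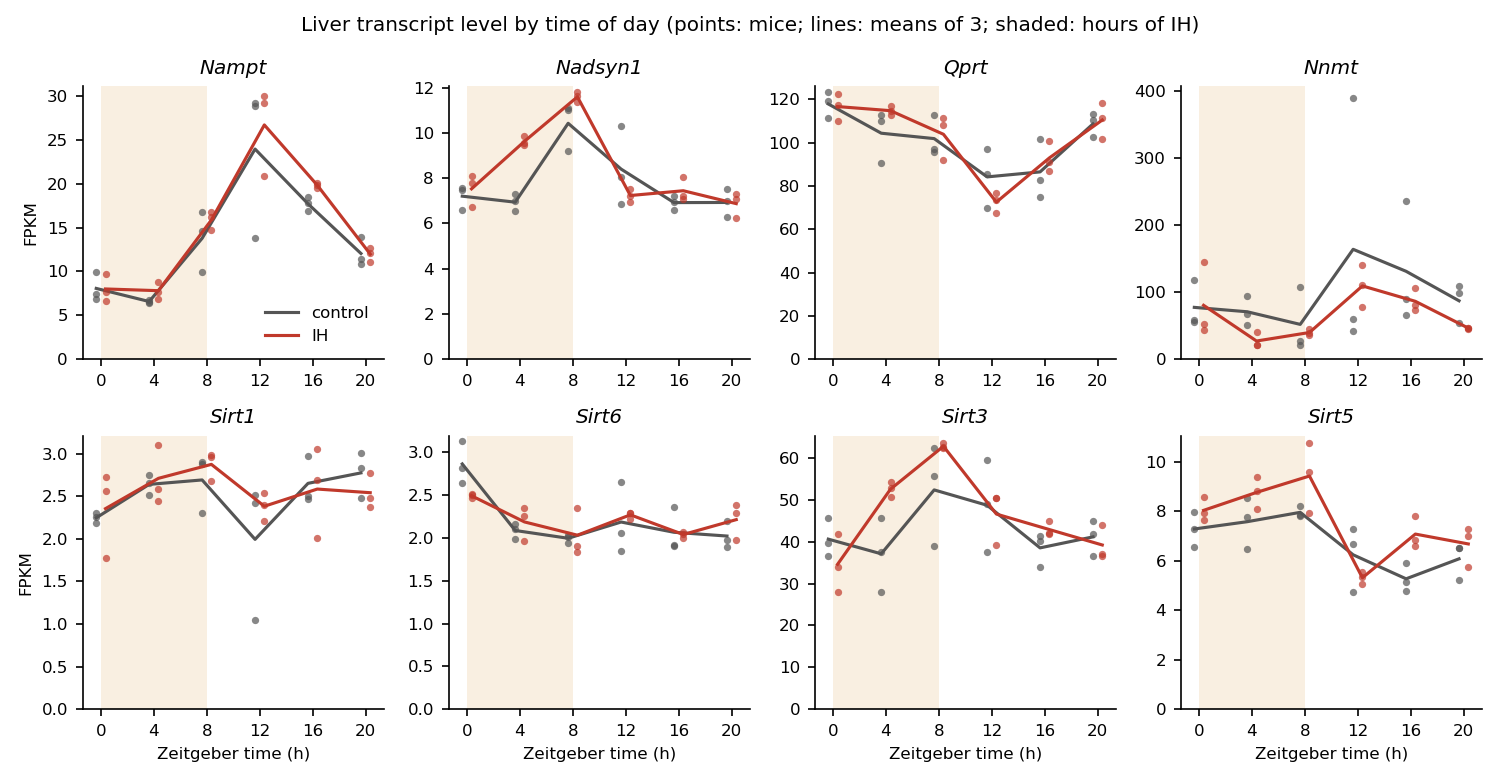
FPKM (vertical axes, each from 0) of the 8 transcripts against zeitgeber time in h; points are single mice, lines join the means of 3 mice, grey is control, red is IH and the shaded band marks the hours of IH. Nampt rises from its ZT4 trough to ZT12 in both conditions, Nadsyn1 and Sirt3 are highest at ZT8, Qprt is lowest at ZT12, and single control mice stand out for Nnmt at ZT12 (389 FPKM) and ZT16 (237 FPKM).

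Of the 2 other synthesis enzymes, Qprt ran against Nampt. It was highest at ZT0, with 119, 111 and 123 FPKM in control and 110, 117 and 123 in IH, and lowest at ZT12, with 97.3, 70.0 and 85.5 in control and 76.9, 67.4 and 73.4 in IH. The peak to trough ratio was 1.40 in control and 1.61 in IH, and the mice of ZT0 and ZT12 did not overlap in either. The fitted peaks, at 0.85 ± 0.92 h and 0.80 ± 0.60 h, fell at the start of the light phase (nominal P = 0.00238 for control, 2.71e-05 for IH, n = 18 each).

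Nadsyn1 was highest at ZT8 in both conditions, with 9.19, 11.0 and 11.1 FPKM in control and 11.6, 11.3 and 11.8 in IH. Its lowest means were 6.92 ± 0.301 at ZT16 in control and 6.87 ± 0.558 at ZT20 in IH, which gave ratios of 1.51 and 1.69. In IH the level was 9.62 ± 0.217 at ZT4, and in control it was 6.94 ± 0.367 at ZT4 and 8.40 ± 1.75 at ZT12, where the 3 control mice were at 10.3, 6.86 and 8.04. The cosine peaked at 8.94 ± 1.10 h in control mice and at 6.54 ± 0.64 h under IH, an IH minus control difference of -2.40 ± 1.27 h (SE), and the test of the difference did not pass (interaction P = 0.10, n = 36, adjusted p = 0.92). The control rhythm was a marginal call (nominal P = 0.00973, n = 18) that was lost in 13 of 18 fits that left out 1 control mouse (P between 0.00203 and 0.0341). The IH rhythm passed at P = 6.13e-05 (n = 18) and in each of the 18 fits without 1 IH mouse.

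Nnmt varied more between mice than any other member. Control mice measured 58.8, 55.6 and 118 FPKM at ZT0, 67.1, 50.8 and 94.6 at ZT4, 107, 20.9 and 27.8 at ZT8, 42.4, 389 and 60.2 at ZT12, 66.3, 90.6 and 237 at ZT16, and 109, 53.8 and 98.7 at ZT20. IH mice measured 53.1, 144 and 43.9 at ZT0, 20.7, 20.7 and 40.1 at ZT4, 39.2, 44.6 and 35.9 at ZT8, 77.8, 140 and 110 at ZT12, 73.1, 106 and 80.5 at ZT16, and 45.6, 46.7 and 47.2 at ZT20. The SD within a time point was larger in control than in IH at 5 of the 6 time points, ZT0 being the exception. In IH the mean rose 4.02-fold from ZT4 (27.2 ± 11.2) to ZT12 (109 ± 31.1) without overlap between mice, and the rhythm fell just outside the threshold (P = 0.0101, n = 18). In control the ZT8 and ZT12 mice overlapped and the rhythm P was 0.241. Without IH ZT0 replicate 2, the IH mouse with Saa1 above 10000 FPKM, the P for Nnmt in IH was 3.93e-05.

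Of the sirtuins among the members, Sirt3 was rhythmic in IH and Sirt5 in both conditions, and Sirt1 and Sirt6 passed in neither. Of the sirtuins outside the members, Sirt2 passed in IH alone, and Sirt4 and Sirt7 passed in neither. Sirt3 was highest at ZT8, with 39.1, 62.4 and 55.7 FPKM in control and 63.5, 62.4 and 62.5 in IH. Its IH mean fell to 34.6 ± 6.90 at ZT0, a 1.82-fold range without overlap, and the IH rhythm passed the test (P = 0.000187, n = 18, peak 8.45 ± 0.71 h). In control the range was 1.41-fold, the peak and trough mice overlapped, and the P was 0.204. The test of the difference between those rhythms did not pass (P = 0.17, n = 36, adjusted p = 0.92). Sirt5 was also highest at ZT8, at 7.96 ± 0.237 FPKM in control and 9.43 ± 1.41 in IH. Its rhythm passed for control (P = 0.00131, n = 18, peak 4.62 ± 0.86 h) and for IH (P = 0.0048, n = 18, peak 3.65 ± 1.00 h).

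Sirt1 lay between 1.78 and 3.11 FPKM in 35 of the 36 libraries. The exception, 1.04 FPKM, was control ZT12 replicate 2, the library with the lowest median-ratio factor. The rhythm P of Sirt1 was 0.723 in control and 0.516 in IH, with amplitudes of 0.06 ± 0.07 and 0.06 ± 0.05 (log2, SE). Sirt6 lay between 1.84 and 3.13 FPKM, with its highest means at ZT0 (2.65, 2.82 and 3.13 in control, 2.52, 2.46 and 2.50 in IH). Its lowest means were at ZT8, and the mice of ZT0 and ZT8 did not overlap in either condition. The peak to trough ratio was 1.435 in control and 1.227 in IH, and the rhythm P of Sirt6 was 0.183 in control and 0.245 in IH. A P above the threshold does not show a constant level.

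**Figure D2:**
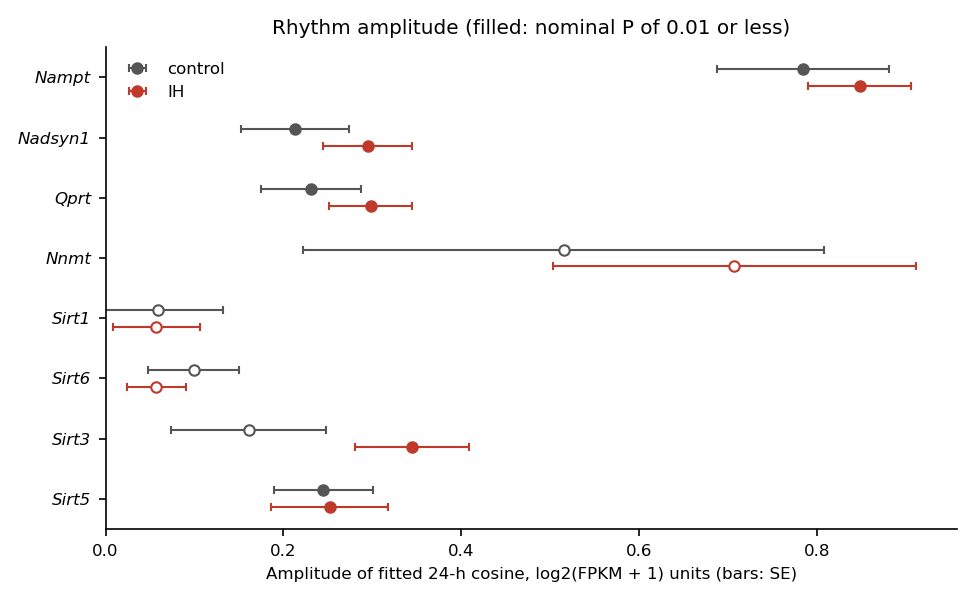
Amplitude of the fitted 24-h cosine on the log2(FPKM + 1) scale (horizontal axis, bars are SE) for each transcript in control (grey) and IH (red); filled symbols passed a nominal P of 0.01. Nampt has the largest amplitude of the called transcripts (0.78 in control, 0.85 in IH), and Sirt1 and Sirt6 lie at or below 0.10 in both conditions.

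By that threshold 4 of the 8 members were rhythmic in control, where 20.0% of the 13215 genes tested were, and 5 of 8 were rhythmic in IH, where 39.9% were. Nampt, Nadsyn1, Qprt and Sirt5 passed in both conditions (4 of 8, against 15.5% of all genes) and Sirt3 in IH alone (1 of 8, against 24.4%). The members were chosen with earlier results of these data known, so these shares are a description and no test of enrichment. Passing in 1 condition is not a test of a difference. In the interaction test no member differed in rhythm (adjusted p between 0.92 and 0.97), and no gene of the 13215 did, with 649 genes (4.91%) at an unadjusted P under 0.05 and none of the 8 members among them.

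Over all time points no member differed in level between IH and control after adjustment, in a test in which 0.303% of genes were higher in IH and 0.0530% lower. Sirt5 came nearest, at 7.55 FPKM in IH and 6.73 in control, a log2(FPKM + 1) difference of 0.14 ± 0.05 (SE; P = 0.015, n = 36, limma adjusted p = 0.33) with 13 of 18 IH mice above the control mean of their time point. Nnmt had the largest difference and the widest interval, 65.0 FPKM in IH against 97.1 in control, or -0.43 on the log2 scale with a 95% interval of -0.93 to 0.07. The control mean includes the mouse at 389 FPKM, whose Saa1 was 20550 FPKM, and with the acute phase sum described below as a covariate the Nnmt difference was -0.13. For Qprt the interval was -0.08 to 0.11, for Sirt1 -0.08 to 0.15 and for Sirt6 -0.06 to 0.07, so shifts of the daily mean larger than these bounds lay outside the 95% intervals. The members' median was 0.06 against 0.03 over all genes.

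At ZT4 and ZT8 together, 6 mice per condition, Nadsyn1 was higher in IH. It averaged 10.6 FPKM in IH and 8.68 in control, a log2 difference of 0.28 ± 0.06 (SE; limma adjusted p = 0.026) with 6 of 6 IH mice above the control mean of their time point. Of all genes 6.05% were called higher and 1.93% lower. The other 7 members did not pass. Sirt3 averaged 57.7 FPKM in IH and 44.7 in control (0.40 ± 0.12, P = 0.0069, n = 12, adjusted p = 0.066), Sirt5 9.09 and 7.77 (0.20 ± 0.07, adjusted p = 0.11), Nampt 11.8 and 10.2 (0.22 ± 0.10, adjusted p = 0.19) and Nnmt 33.6 and 61.4 (-0.69 ± 0.39, adjusted p = 0.27). The members' median was 0.14 against 0.04 over all genes. The Nadsyn1 call was lost without any 1 of IH ZT4 replicates 1, 2 and 3, control ZT4 replicates 1 and 3 and control ZT8 replicate 1, with log2 differences between 0.25 and 0.32 over all 12 mice left out in turn, and Sirt3 passed without control ZT4 replicate 2 or control ZT8 replicate 2. At a nominal P of 0.01, without adjustment, Nadsyn1 and Sirt3 would both be called at ZT4 and ZT8, where 9.49% of all genes were called higher and 2.89% lower.

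**Figure D3:**
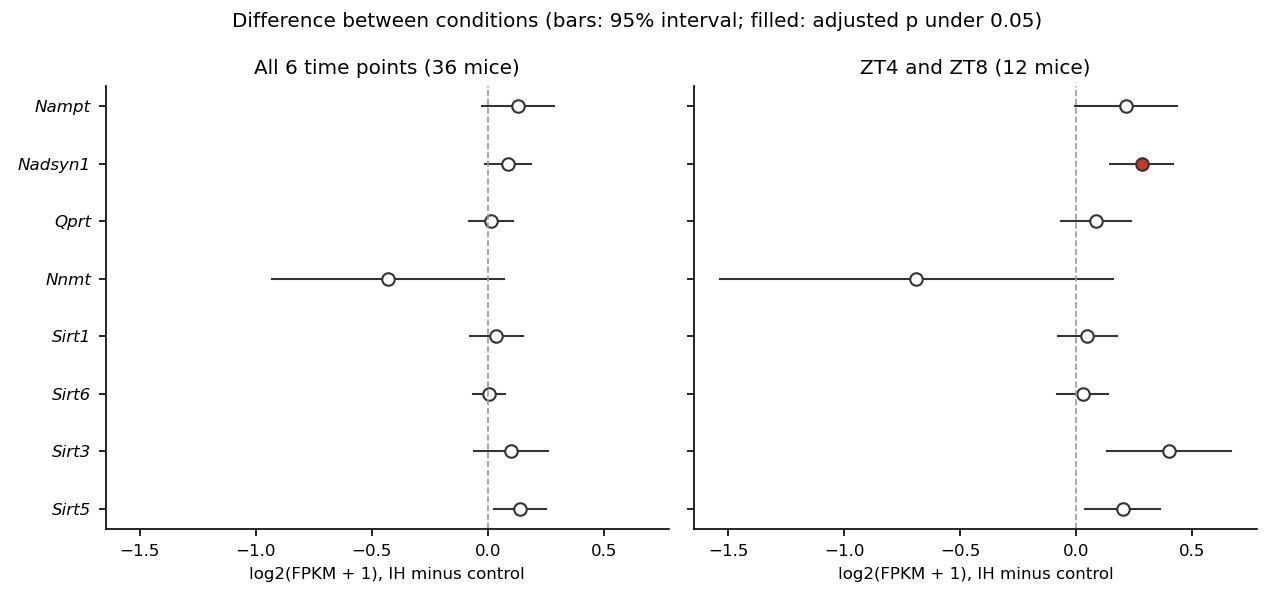
Difference in log2(FPKM + 1), IH minus control, over all 6 time points (left) and at ZT4 and ZT8 (right); circles are estimates, bars 95% intervals, and a filled circle marks an adjusted p under 0.05. On the right Nadsyn1 is filled at 0.28 and Sirt3 lies at 0.40 with a wider bar, while the Nnmt bar is the widest on both sides.

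By single time points, 1 of 48 pairs of member and time point passed: Nadsyn1 at ZT4. The IH mice measured 9.87, 9.46 and 9.54 FPKM and the control mice 6.98, 7.28 and 6.55, with no overlap, a log2 difference of 0.42 ± 0.10 (SE; limma adjusted p = 0.032, with 0.885% of all genes called higher in IH at ZT4). The call was lost without any 1 of IH ZT4 replicates 1, 2 and 3 or control ZT4 replicates 1 and 3, with log2 differences between 0.39 and 0.45 over the mice left out in turn, and after scaling to a common sum, where the difference was 0.41. At ZT8 the Nadsyn1 groups were also apart (11.3 to 11.8 against 9.19 to 11.1), by a smaller amount that did not pass. At the other time points the background of the same call was 0% higher in IH at ZT0 and ZT20, 0.00757% at ZT8 and ZT16 and 0.272% at ZT12, and the share called lower was 0.272% at ZT4, 0.499% at ZT12 and 0% elsewhere.

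Sirt3 at ZT4 was 52.7, 54.3 and 50.7 FPKM in IH and 37.5, 45.8 and 28.1 in control, which do not overlap (0.52 ± 0.17, P = 0.0053, n = 36 in the fit, adjusted p = 0.12). Nnmt at ZT4 was 20.7, 20.7 and 40.1 in IH and 67.1, 50.8 and 94.6 in control, again without overlap and in the other direction (-1.37 ± 0.61, P = 0.032, n = 36 in the fit, adjusted p = 0.25). Of the 48 pairs, IH lay wholly above control in 8 and wholly below in 3, and 37 overlapped. The 8 were Nadsyn1 at ZT4 and ZT8, Nampt at ZT4 and ZT16, Sirt3 at ZT4 and ZT16, Qprt at ZT4 and Sirt5 at ZT16, and the 3 were Nnmt at ZT4 and ZT20 and Sirt6 at ZT0. Of these 8, 4 were thus at ZT4, where 26.7% of all genes had IH wholly above control and 7.79% wholly below, and 3 were at ZT16, where 10.0% had IH above. At ZT8 11.0% of genes had IH above, and IH lay below for 6.21% at ZT0 and 4.18% at ZT20. At a nominal P of 0.01 the pairs called would be 3: Nadsyn1 and Sirt3 at ZT4 (4.87% of genes higher, 1.51% lower) and Sirt5 at ZT16 (0.515% higher), which measured 6.82, 6.59 and 7.83 FPKM in IH and 4.76, 5.91 and 5.13 in control (0.37 ± 0.12, adjusted p = 1).

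The ZT4 differences went with a difference in acute phase transcripts. The summed FPKM of Saa1, Saa2, Saa3, Lcn2 and Orm2, a list chosen after these values were seen, was 4475, 103 and 4334 in the control mice at ZT4 and 59.0, 130 and 106 in the IH mice. The control ZT4 mouse with the low sum, replicate 2, had the highest Sirt3 (45.8), the highest Nadsyn1 (7.28) and the lowest Nnmt (50.8) of its group, and still lay outside the IH range for each of the 3 genes. At ZT8 control replicate 1 had a sum of 1422 against 48.4 and 38.6 in the other two, and it had the lowest Nadsyn1 (9.19), Sirt3 (39.1) and Nampt (9.92) and the highest Nnmt (107) of that group. With the log2 sum as a covariate, added after the data were seen, no member passed at ZT4 and ZT8, where 0.393% of all genes were then called higher and 0.235% lower: the Nadsyn1 difference was 0.18, Sirt3 0.16, Nampt 0.12 and Nnmt 0.02. At ZT4 alone Nadsyn1 was then 0.34 and not called, Sirt3 0.30 and Nnmt -0.56. With 2 of 3 control mice at ZT4 high in the sum and no IH mouse, the condition and the acute phase level cannot be fully told apart at that time point. At the other time points the sum was also uneven. In control it reached 1885 (ZT0 replicate 3), 1422 (ZT8 replicate 1), 37500 (ZT12 replicate 2), 28550 (ZT16 replicate 3) and 3848 (ZT20 replicate 1). In IH it reached 50620 (ZT0 replicate 2) and 4155 (ZT12 replicate 2). All other sums at those time points were 616 FPKM or less. The mean level and rhythm comparisons thus also set side by side conditions that were uneven in this sum.

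Over the 36 mice Nnmt rose and Sirt3 and Nadsyn1 fell with the log2 acute phase sum. For Nnmt, Pearson's r was 0.764 and Spearman's rho 0.716, and for Sirt3 they were -0.725 and -0.795 (permutation p = 1e-05 for each, the smallest that 100000 permutations can give, and adjusted p = 0.00012 for r and 8e-05 for rho over 24 relations). Within control mice r was 0.832 for Nnmt and -0.756 for Sirt3, and within IH mice 0.621 and -0.694. Without the 2 mice farthest from the median sum, Sirt3 stayed at -0.696 over all mice, -0.792 in control and -0.622 in IH. Nnmt went to 0.691, 0.674 and, in IH, 0.274, so its IH r rests on those mice where time of day is left in. By rank over all 18 IH mice its rho was 0.581 (permutation, adjusted p = 0.031). With time of day and condition removed as below, the IH r of Nnmt was 0.779 with all IH mice kept. For Nadsyn1 over all mice r was -0.491 and rho -0.595 (permutation, adjusted p = 0.011 and 0.00091), and r was -0.472 without the 2 farthest mice. Within control its r was -0.484 and its rho -0.602 (permutation, adjusted p = 0.099 and 0.029), and within IH -0.469 and -0.62 (0.099 and 0.025). Sirt1 passed by rho within IH (-0.591, permutation, adjusted p = 0.03, with r at -0.282 and adjusted p = 0.37) and Nampt by rho within control (-0.55, adjusted p = 0.042, with r at -0.372 and adjusted p = 0.21). Without the 2 farthest mice those r were -0.513 for Sirt1 and -0.668 for Nampt, and the other relations did not pass. After each value was taken as a deviation from the mean of its condition and time point, which removes time of day and condition, r was 0.86 for Nnmt, -0.833 for Sirt3, -0.713 for Nampt and -0.594 for Nadsyn1, and between -0.333 and 0.055 for Qprt, Sirt1, Sirt5 and Sirt6. For the first 4 the adjusted permutation p values over 8 relations were 0.00012, 0.00012, 0.0015 and 0.018, with permutation within condition and time point. Without the 2 mice with the largest deviations in the sum these 4 were 0.808, -0.823, -0.673 and -0.503. By condition, the r of these deviations was -0.743 in control and -0.636 in IH for Nampt, and -0.479 and -0.003 for Sirt1.

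**Figure D4:**
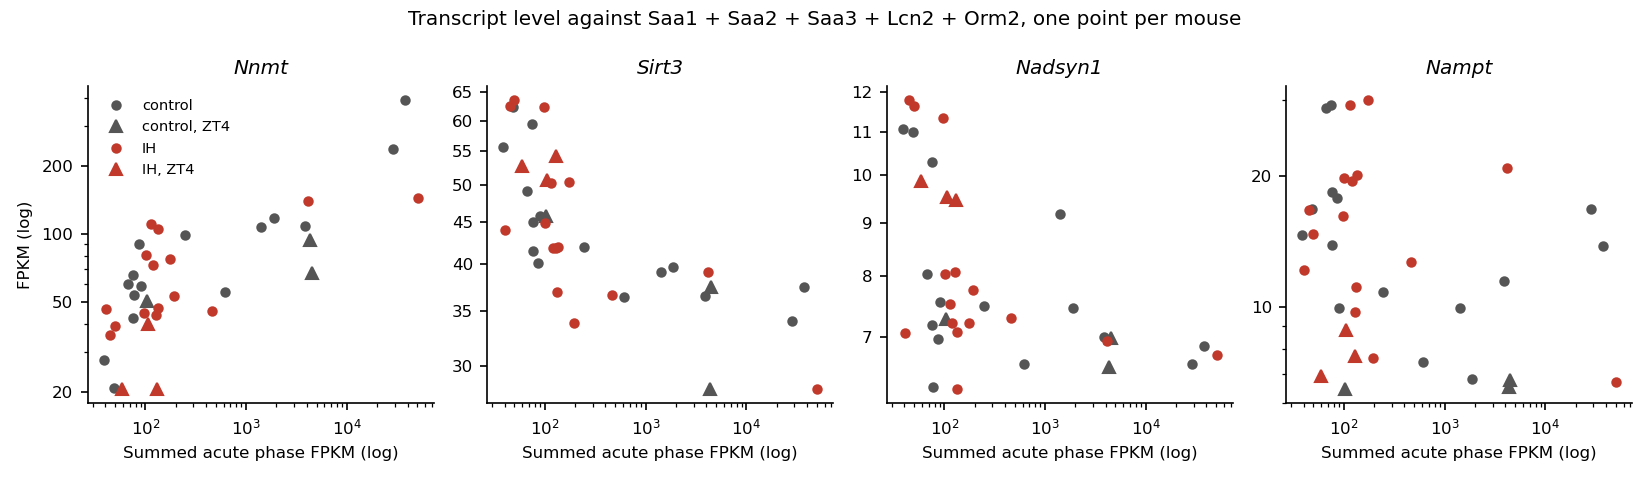
FPKM of Nnmt, Sirt3, Nadsyn1 and Nampt (vertical, log axes) against the summed FPKM of Saa1, Saa2, Saa3, Lcn2 and Orm2 (horizontal, log axes), one point per mouse, with ZT4 mice as triangles. Nnmt, which spans 20.7 to 389 FPKM, tends to climb and Sirt3 to decline as the sum grows. The mouse with the highest sum, IH ZT0 replicate 2, has Nnmt at 144 FPKM. Of the 3 control ZT4 mice 2 have sums of 4334 FPKM or more, and the 3 IH ZT4 mice are at 130 or less.

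With that covariate the rhythm of Nnmt passed for control mice (nominal P = 0.00521, n = 18) and IH mice (P = 4.23e-05, n = 18), and the members called rhythmic became 5 of 8 in control, where 27.2% of all genes were then rhythmic, and 6 of 8 in IH, where 43.3% were. Without the 3 libraries with Saa1 above 10000 FPKM, the pairs of member and time point that passed were 3 of 48: Nadsyn1, Sirt3 (0.52) and Nnmt (-1.37), each at ZT4, where 7.95% of all genes were then called higher in IH and 2.15% lower. The 2 control ZT4 mice with sums of 4334 FPKM or more remain in that fit. None of the 3 libraries left out was from ZT4, so the ZT4 differences equal those of the main fit. What differed was the spread, estimated over the remaining libraries, and the set of genes adjusted over.

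The rest of the NAD pathway was read from 33 further genes in 6 lists, of which 28 passed the filter. By list, rhythm in both conditions was called for 2 of 7 genes from tryptophan to quinolinate, 4 of 6 of salvage, nicotinic acid use and adenylylation, 2 of 6 NAD consumers, and none of 4 for NADP and transport, 2 for nicotinamide clearance and 3 other sirtuins. Over all lists 8 of 28 were rhythmic in both conditions, 4 in IH alone, 2 in control alone and 14 in neither, against 15.5%, 24.4%, 4.55% and 55.6% of all genes. The lists were also chosen with earlier results of these data known, so these shares are a description. No list gene differed in rhythm or in mean level between the conditions after adjustment.

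Nmrk1, the kinase that makes nicotinamide mononucleotide from nicotinamide riboside, ran close to Nampt. It rose from 9.06 ± 1.22 FPKM at ZT4 to 29.7 ± 5.05 at ZT12 in control and from 10.2 ± 0.323 to 28.8 ± 2.59 in IH, with fitted peaks at 14.08 and 13.49 h. Of the other genes of its list rhythmic in both conditions, Pnp and Nt5e peaked late in the dark phase. Pnp, a nucleoside phosphorylase, peaked at 22.7 and 21.67 h, and Nt5e, a nucleotidase, at 22.74 and 22.63 h. Nmnat3, an adenylyltransferase that makes NAD from the mononucleotide, peaked at 5.61 and 4.23 h.

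In the quinolinate branch Kynu peaked at 0.86 and 1.20 h, close to Qprt, and Acmsd, which diverts the pathway away from quinolinate, at 19.95 and 19.1 h. Among the consumers the poly(ADP-ribose) polymerases Parp2 (2.51 and 1.94 h) and Parp3 (1.30 and 23.89 h) were rhythmic in both. Naprt, Nadk, Aox3 and Sirt2 passed in IH alone (P = 0.00105, 9.72e-06, 0.00127 and 0.0047, n = 18), and Ido2 and Slc25a51 in control alone (P = 7.3e-06 and 0.000628, n = 18).

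**Figure D5:**
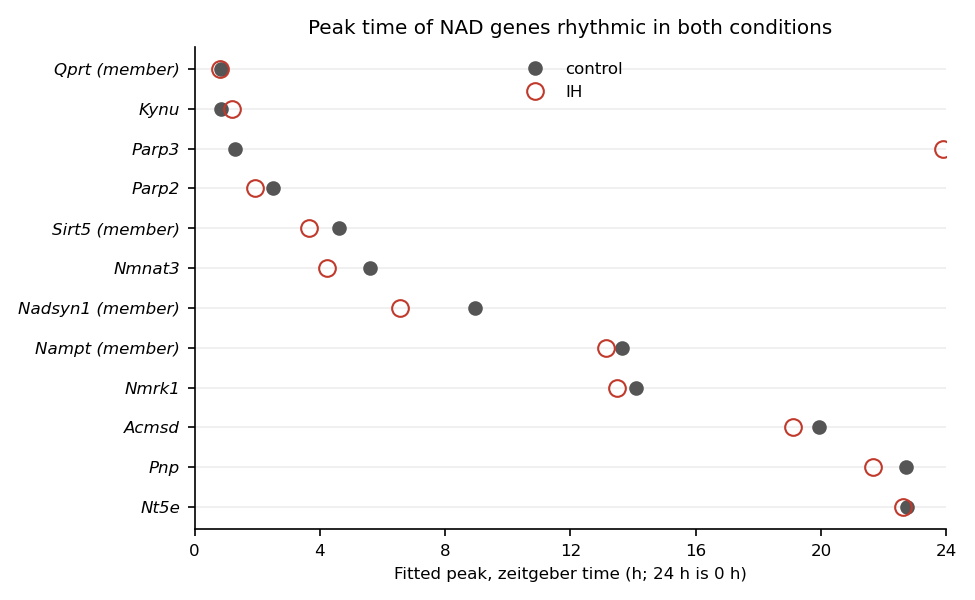
Fitted peak in zeitgeber time (h, horizontal axis, where 24 h is the same as 0 h) of the 12 NAD genes called rhythmic in both conditions, 4 members and 8 further pathway genes; filled grey circles are control and open red circles IH. Nampt and Nmrk1 peak between 13.15 and 14.08 h, Qprt and Kynu between 0.80 and 1.20 h, and the Parp3 circles lie on both sides of 0 h.

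At ZT4 and ZT8 Nmnat3 was higher in IH and Kmo and Pnp were lower, against backgrounds of 6.05% and 1.93%. Nmnat3 was 4.00 ± 0.284 and 4.73 ± 0.446 FPKM in IH and 2.68 ± 0.370 and 4.29 ± 0.192 in control (0.28 ± 0.08 on the log2 scale, limma adjusted p = 0.045). Pnp was 26.8 ± 3.07 and 13.2 ± 0.744 in IH and 37.6 ± 3.66 and 16.3 ± 3.34 in control (-0.38 ± 0.09, adjusted p = 0.031). Kmo, the kynurenine hydroxylase that feeds quinolinate synthesis, was 96.3 ± 2.75 and 93.8 ± 3.72 in IH and 116 ± 10.5 and 107 ± 12.1 in control (-0.22 ± 0.06, adjusted p = 0.044). The other 25 list genes tested did not pass. With the acute phase sum as a covariate none of the 28 passed, and the differences were 0.18 for Nmnat3, -0.23 for Pnp and -0.11 for Kmo. None passed either without filtering low values or without a time factor. The number called was 0 to 4 when the 12 mice were left out in turn, with 0 without any 1 of IH ZT4 replicates 2 and 3, IH ZT8 replicates 1 and 2, control ZT4 replicates 1 and 3 and control ZT8 replicate 1, and 1 without IH ZT4 replicate 1. Nmnat3 also lost its call under each of the 3 scalings (0.23 to 0.26) and with the replicate block (0.28).

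Over the 12 means per condition and time point, the genes most like each member were ranked by Pearson's r on log2(FPKM + 1) among 9813 candidates, as a description over means that share mice. Nmrk1 ranked first for Nampt (r = 0.982), ahead of Tmem57 (0.980) and Lrrc28 (0.977). Nadsyn1 was most like Gtdc1 (0.978), 1600014C10Rik (0.970) and Gm10804 (0.967), and Qprt most like Cnp (0.976), Ext2 (0.965) and Camk1d (0.964). For Nnmt they were Pdia5 (0.919), the complement gene C4a (0.898) and Cyp21a1 (0.895). Among the sirtuins, Sirt3 was most like Gkap1 (0.967), Hpcal1 (0.961) and Dsg1c (0.954), and Sirt5 most like Fgfr2 (0.940), Ppp1r7 (0.938) and Tprgl (0.929). For Sirt1 they were Mut (0.914), Ghitm (0.903) and Dpyd (0.888), and for Sirt6 Ddx24 (0.947), 2310047M10Rik (0.912) and Lin37 (0.896).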

How the data were processed

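RNA-seq of liver from 36 mice (3 per condition and time point) was analysed from FPKM that the authors deposited. Per the labels and the study's methods, stranded polyadenylated libraries were sequenced with paired reads of 100 bases, aligned to mm10 with TopHat2 2.1.1 and Bowtie2, and each replicate was quantified with Cufflinks 2.2.1. The gene models used and any between-sample scaling are not given in the sources used here. FPKM are not counts, so depth is unknown in reads; steps among values under 0.05 FPKM gave relative depths between 0.79 and 1.32 of the median library. The deposited values form a table for each condition, whose columns carry identical names, so the condition was taken from the name of the table. Replicate numbers, time points and conditions came from the sample labels.

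Of 24883 rows, the 24066 symbols listed on 1 row were kept, and 13215 with a mean of at least 0.1 FPKM were tested on log2(FPKM + 1) by limma 3.58.1 with a trend, run in R 4.3.3; a difference on this scale understates the fold of low genes. Rhythm was a moderated F test of a 24-h cosine per condition at a nominal P of 0.01, the study's threshold, with the cosine in place of BIO_CYCLE, which was not used here. Rhythm difference was the interaction with condition over 36 libraries. Levels were compared with time point as a factor over all libraries and over the 12 of ZT4 and ZT8, and by time point within a fit of all 36. P-values were adjusted by Benjamini-Hochberg over all genes tested, with a threshold of 0.05. Members and gene lists were chosen with earlier results of these data known. Named genes are the 8 members, each list gene called in any comparison, and the 3 genes most like each member among those with a mean of at least 1 FPKM. The tests were run on simulated data with a cosine amplitude or a rise of 1 in log2, and called 95% to 100% of the changed genes. No member had an amplitude that large, and smaller effects were not simulated. Alternatives were other pseudocounts, filters, scalings and rhythm tests (JTK_Cycle was one), the replicate block, and leaving out libraries. Positions are from GENCODE on mm10, promoters from RefSeq, and plots were made by matplotlib 3.10.9 under Python 3.11.15.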

Additional observations from a re-analysis of the deposited data

How the results depend on the processing

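No called value of the 8 members, or of the 3 pathway genes called at ZT4 and ZT8, turned its direction under any alternative run. The members rhythmic in control were 4, with 2 by an F test over the 6 time points, and between 3 and 4 when each mouse was left out in turn. The members rhythmic in IH were 5, between 4 and 6 without single mice. No member differed in rhythm or in mean level under any alternative run (0 without any single mouse). The members differing at ZT4 and ZT8 were 1, with 2 at a nominal P of 0.01 (Sirt3 joined), 0 without a time factor, 0 with the acute phase sum as a covariate (chosen after seeing the data), and 0 to 2 without single mice. The pairs of member and time point differing were 1, with 0 after scaling to a common sum (Nadsyn1 at ZT4 was 0.41 against 0.42), 0 with the acute phase covariate, 3 without the libraries with Saa1 above 10000 FPKM, 3 at a nominal P of 0.01, and 0 to 1 without single mice. Of the single-gene values recomputed for the members, 3499 kept their call, 16 gained one and 37 lost one, and 93 of 2704 differences had the other sign, all with no call before or after. The rhythm of Nadsyn1 in control was lost after scaling to a common sum (P = 0.0863, n = 18) and with JTK_Cycle (P = 0.0819). Qprt in control was lost with median-ratio scaling (P = 0.0151, n = 18) and the F test (P = 0.0144), Sirt5 in control with the F test (P = 0.0141), and Sirt5 in IH with median-ratio scaling (P = 0.0177), quantile normalization (P = 0.0162) and without IH ZT4 replicate 1 (P = 0.0123). Nnmt in IH passed with a pseudocount of 0.1 (P = 0.00974, n = 18), scaling to a common sum (P = 0.0072), median-ratio scaling (P = 0.00828), JTK_Cycle (P = 0.00613), the F test (P = 0.00048), without the libraries with Saa1 above 10000 FPKM (P = 3.89e-05) and with the acute phase covariate (P = 4.23e-05). Scaling to a common sum moved the median of all genes at ZT12 to 0.11 (log2) from 0.04. The pathway genes were put through the other scalings, filters, pseudocount, rhythm tests and left-out mice after the data were seen. The number differing at ZT4 and ZT8 was 3, with 0 without a filter on low values, 5 at a mean of at least 1 FPKM, 0 with the acute phase covariate, 0 without a time factor and 0 to 4 without single mice, and the number rhythmic in both conditions was 8, with 6 to 11 under the other settings and 6 to 9 without single mice. The cause of these changes was not tested. The 3 mice per group and unknown read depth limit the precision.

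Replicate numbers were checked for pairing: residuals of same-numbered mice correlated by 0.056 on average (-0.198 to 0.312 over 18 pairs, 7 of them above 0.1). The average was -0.027 for mice of other numbers. Whether same-numbered mice share more than a number cannot be settled by this check. With the replicate block the members rhythmic in control were 3 (Nadsyn1 P = 0.0144, n = 18), those in IH 5, those differing in rhythm 0, in mean level 0 and at ZT4 and ZT8 1, and the pairs differing 1. For the pathway list they were 3 at ZT4 and ZT8 and 6 rhythmic in both conditions.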
